A study of Mus musculus with 5 samples.

Results

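This report concerns the difference between mouse bone mesenchymal stem cells held under negative pressure and their control, over 12113 genes of the 55401 in the deposited table. Genes were members when their FPKM (fragments per kilobase of exon, relative to library depth) averaged 1 or more over the 5 libraries. Wild-type cells from bone marrow were cultured for 72 h in every group. The groups were 0 mmHg (the control) and continuous negative pressure of -80, -120, -160 or -200 mmHg for 48 h, and each had 1 library made from total RNA with a NEBNext Ultra kit. The value described for each gene is the mean log2(FPKM + 1) of the 4 pressure libraries minus that of the control, called the difference below. A gene is called higher or lower when its difference is at least 1 or at most -1, which on this scale understates the change of genes with low values.

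Bone mesenchymal stem cells, or BMSCs, are adherent stromal cells of the marrow able to become osteoblasts, adipocytes or chondrocytes and they also secrete matrix and growth factors. Negative pressure is applied to wounds in the clinic, and in culture it lowers the air pressure above the cells. The series compared gene expression across the applied pressures. With 1 library per condition no difference has a replicate check. The 4 pressure libraries are different conditions, so their spread is not a replicate error, and all 4 are compared with the same single control.

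The control library stood apart in genes of the Y chromosome. Uty, Kdm5d, Ddx3y and Eif2s3y gave 318, 445, 641 and 1089 reads there, and none gave a read in any pressure library. Xist, the RNA that coats the inactive X chromosome, was near 0 throughout, with 0 reads in the control and 12, 19, 16 and 20 at -80, -120, -160 and -200 mmHg. Whether a difference given here goes with the pressure or with another source of the control cells cannot be told apart. Library totals recovered from the table were 16600622 to 18398911 reads. In bulk libraries, fewer cells of a type and less RNA per cell cannot be told apart either.

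Of the 12113 genes, 1121 (9.25%) were higher and 751 (6.2%) were lower under pressure. When libraries were scaled so that their trimmed mean log ratio was 0, which moves the median of all genes from 0.15 to 0.00, the split became 788 higher and 1003 lower. With quantile normalization it was 851 and 804, and with a pseudocount of 5 it was 281 and 415. The median of all genes lay between 0.14 and 0.16 at each pressure, with quartiles of the mean difference at -0.28 and 0.56. Of the higher genes 786 (70.1%) passed the size rule at all 4 pressures, as did 540 (71.9%) of the lower genes. The highest minus the lowest pressure library was 0.25 at the median of the higher genes and 0.30 at that of the lower genes. Over all tested genes the median was 0.22. The called genes were chosen for the size of their difference, so this spread cannot be weighed against it. Large decreases outnumbered large increases. At least 4-fold on this scale were 135 higher and 165 lower genes, at least 8-fold 17 and 70, and at least 16-fold 6 and 21. The median level was 19.6 FPKM in the control for the lower genes and 7.01 FPKM under pressure for the higher genes. These medians cannot be compared, because the filter averages 1 control and 4 pressure libraries. It so asks more of a gene that is high in the control alone, and the counts of list members below were made under it.

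**Figure D1:**
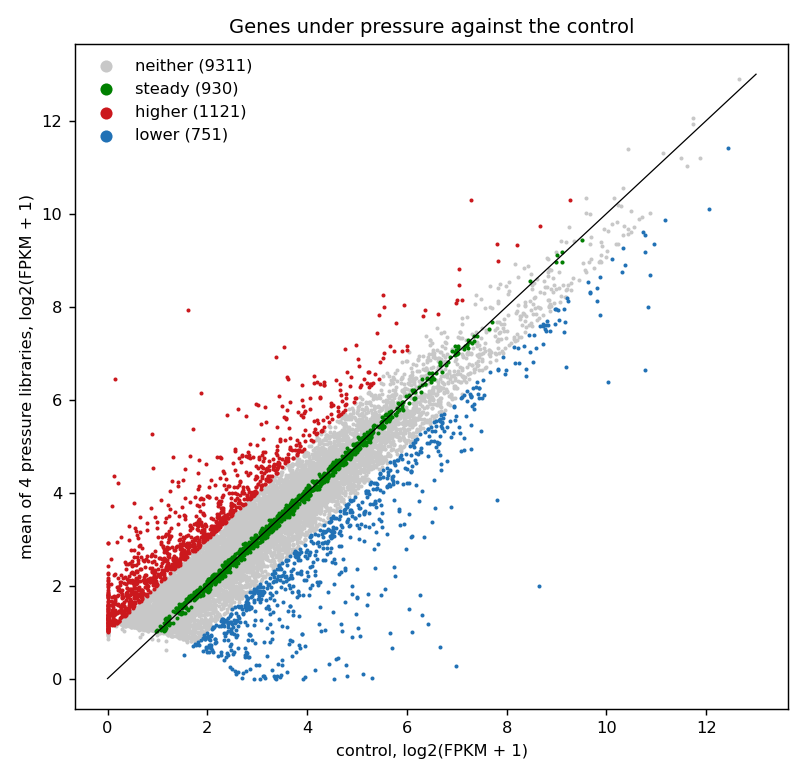
Each point is 1 of 12113 genes, with log2(FPKM + 1) in the control on the x axis and the mean over the 4 pressure libraries on the y axis. The 1121 higher genes lie above the diagonal and the 751 lower genes below it, and the lower genes reach farther from it, down to 0 on the y axis.

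Genes of secreted proteins were among the largest increases. Angptl7, an angiopoietin-like secreted protein, had 81 reads in the control and 9067, 9297, 7698 and 9581 reads under pressure, in the order -80, -120, -160 and -200 mmHg used throughout. Scaled to library totals and pooled over the pressures this was a ratio of 119 (95% interval 95.3 to 149), an exact Clopper-Pearson interval that covers counting error only, as do all intervals and floors below. Scg2, a granin of secretory granules, had 5 reads and then 3231, 3340, 4019 and 4263 reads, a difference of 6.29. Nxph4, a neurexophilin, stood at 0.876 FPKM in the control and at 18.8, 26.8, 23.1 and 20.4 FPKM under pressure. Bmper, a secreted modulator of bone morphogenetic proteins, stood at 4.23 FPKM and at 53.2, 48.2, 48.9 and 48.4 FPKM, and its 4 pressure values lay close together. Srpx, a sushi-repeat protein, stood at 0.451 FPKM and at 12.6, 13.5, 11.7 and 13.1 FPKM, whereas its paralog Srpx2 moved the other way, from 26.5 FPKM to 0.370, 0.144, 0.201 and 0.227 FPKM. These genes were chosen for the size of their difference, so the gap between control and pressure is given as a description. Ndufa4l2, a mitochondrial protein known as a hypoxia target, varied most among the pressures of the coding genes in this group. It stood at 2.13 FPKM in the control and at 18.4, 25.4, 38.01 and 27.3 FPKM under pressure. The list of hypoxia targets and glycolysis genes had a median difference of -0.19. Of its 37 measured members 3 were higher (8.11%, beside 9.25% of all genes) and 7 lower (18.9%, beside 6.2%). Others among the 15 largest increases were Prss22, Mir196a-1, Clca3a2, Inhbb, Gdpd2, Gas6, Mir23b and Fos, with differences from 3.17 to 4.36.

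Genes of secreted and matrix proteins were also among the largest decreases. Sfrp1, a secreted Wnt antagonist, had 10175 reads in the control and 18, 14, 21 and 11 reads under pressure. Kng1, kininogen, stood at 51.4 FPKM and at 0.592, 0.519, 0.344 and 0.869 FPKM, although near-identical kininogen genes may share its reads. Kng1 still had 32, 28, 19 and 51 reads under pressure, against 3071 in the control. Arhgdib, a GDP-dissociation inhibitor best known from blood cells, stood at 68.1 FPKM and at 0.986, 1.13, 0.723 and 1.23 FPKM. Ptn, the heparin-binding growth factor pleiotrophin, stood at 49.7 FPKM and at 1.12, 0.912, 1.08 and 0.807 FPKM. Csf3, the granulocyte growth factor G-CSF, had 696 reads in the control and 4, 0, 0 and 0 reads under pressure. Others among the 15 largest decreases were Mmp2, H19, Apod, Aspn, Ctsk, Adm, Pitx1 and Mmp13, with differences from -6.64 to -4.46.

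**Figure D2:**
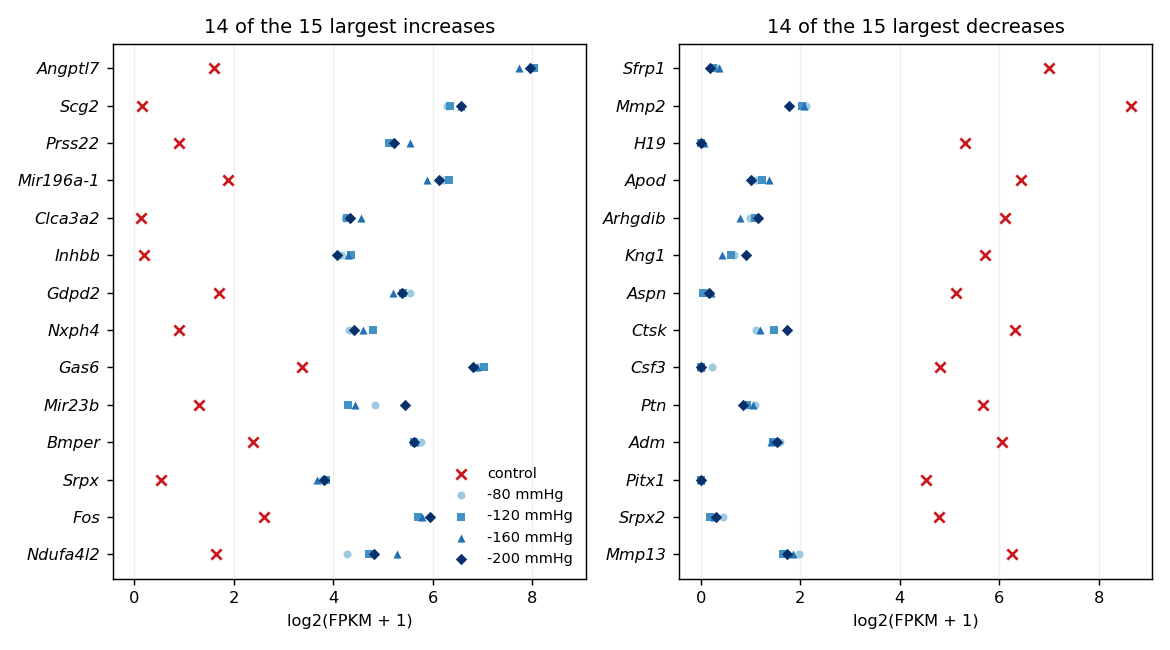
Log2(FPKM + 1) of 14 of the 15 genes with the largest increases (left) and 14 of the 15 with the largest decreases (right), with a cross for the control and a symbol for each pressure library. The genes were chosen for their difference, and for Mir23b and Ndufa4l2 the 4 pressure libraries are spread more widely than for the others on the left.

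Genes silent on one side were counted next, silent meaning under 0.1 FPKM. In the control 126 of 12113 genes (1.04%) were silent, and in all 4 pressure libraries 16 (0.132%). This imbalance comes with the filter: a gene read only in the control needs 5 FPKM there to reach a mean of 1 FPKM over the 5 libraries, and a gene read only under pressure needs less. Of the 126 genes, 76 have exons of under 200 nt in all, among them 29 small nucleolar RNA, 22 miRNA and 15 small nuclear RNA genes, and those 76 rest on a median of 13 reads pooled over the pressures. A rule that asks the same of every library on each side reversed the order, although it binds 4 pressure libraries and only 1 control library. Among 21897 coding genes, 30 (0.137%) were silent in the control with at least 1 FPKM in each pressure library, and 54 (0.247%) were silent in each pressure library with at least 1 FPKM in the control.

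The 30 coding genes silent in the control were mostly low under pressure too, with a median of 1.74 FPKM. The highest was Clca3a2, a member of the calcium-activated chloride channel regulator family, with 7 reads in the control and 1170, 1210, 1530 and 1372 reads under pressure. Lrg1, a secreted leucine-rich glycoprotein, had 0 reads and then 147, 192, 127 and 168 reads, so that the lowest pressure library was at least 45.8-fold higher than a floor of 3 reads in the control. Orm3, an orosomucoid of the acute-phase response, had 0 reads and then 52, 44, 34 and 55 reads, at least 12.3-fold higher. Lrg1 and Orm3 are plasma proteins that the liver secretes in inflammation. Vtn, the adhesive plasma protein vitronectin, had 0 reads and then 54, 57, 72 and 79 reads. Ripply1, a transcriptional corepressor of somite formation, had 0 reads and then 77, 91, 96 and 100 reads, at least 28.4-fold higher. Cpz, a carboxypeptidase with a Wnt-binding domain, had 0 reads and then 50, 62, 82 and 56 reads. Lrg1, Orm3, Vtn, Ripply1 and Cpz were the 5 genes among the 30 with 0 reads in the control. Thy1, the surface antigen CD90 used to define mesenchymal stromal cells, had 1 read in the control and 75, 91, 51 and 80 reads under pressure. Cyp2d22, Sorcs1, Chrdl1, Il2rb, Cldn2, Ppm1j, Ms4a6c and Enho were also in this group, with 4.65 to 5.55 FPKM for the first and 1.75 to 2.27 FPKM for the last under pressure.

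The 54 coding genes silent under pressure had a median of 2.72 FPKM in the control, and 16 of them had 0 reads in all 4 pressure libraries. Pitx1, the homeobox factor of the hindlimb, had 1081 reads in the control but none in any pressure library, which is at least 325-fold lower when each pressure library is set at the floor of 3 reads. Gxylt2, a xylosyltransferase that extends glucose on Notch, had 2282 reads and then 7, 1, 3 and 1 reads. Clec14a, a C-type lectin of vascular cells, had 791 reads and then 0 in each, at least 238-fold lower. The members of this set thus include transcription factors, enzymes and surface proteins. Adh7, an alcohol dehydrogenase active on retinol, had 644 reads in the control and 0, 0, 1 and 0 reads under pressure. Mccc2, a mitochondrial enzyme subunit of leucine breakdown, had 469 reads and then 3, 2, 1 and 0 reads. Mccc1, which encodes the other subunit of that enzyme, stood at 2.88 FPKM in the control and at 3.74, 2.97, 3.48 and 3.49 FPKM under pressure, so 1 of the 2 subunits was silent and the other was not. Irx2, an Iroquois homeobox gene, had 441 reads and then 0 in each, at least 133-fold lower.

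Several genes silent under pressure fell below the filter on the mean and are counted only by the rule for coding genes that does not use it. Bhlhe22, a neural transcription factor, had 235 reads in the control and then 0 in each pressure library, at least 70.7-fold lower. Cxcl9, an interferon-gamma induced chemokine, had 251 reads and then 2, 2, 0 and 0 reads. The genes named in this paragraph were chosen after their values were seen. Rftn1, a lipid-raft protein, and Batf, a leucine-zipper factor of immune cells, gave 234 and 78 control reads and none under any pressure. The 54 genes lay on 19 chromosomes, with 5 each on chromosomes 1, 3 and 11 and 4 on Y.

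Interferon-stimulated genes, which cells switch on through the factor ISGF3 when interferon binds its receptor, had the second-lowest median among the lists with 5 or more measured members. Of 53 listed and measured members 27 were lower (50.9%, beside 6.2% of all genes) and 1 was higher. The median difference was -1.08, beside 0.15 for all genes. Mx1, a dynamin-like antiviral GTPase, stood at 24.8 FPKM in the control and at 0.984, 1.34, 1.66 and 1.10 FPKM under pressure. Ly6e, a surface protein induced by interferon, stood at 579.5 FPKM and at 87.5, 118, 103 and 108 FPKM. The list did not move as a block. Irf9, the DNA-binding subunit of ISGF3, stood at 22.7 FPKM in the control and at 23.3, 26.03, 27.3 and 25.4 FPKM under pressure. Herc6, a ubiquitin ligase of the pathway, met the rule for steady genes with 4.46 FPKM and 4.13, 4.43, 4.72 and 4.46 FPKM, and Ifi27 was the higher member, with 45.3 FPKM and 303, 309, 290.4 and 306 FPKM.

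The promoters of the lower interferon-stimulated genes often hold the letters bound by ISGF3 and the interferon regulatory factors. The string GAAANNGAA was searched on both strands in the 250 bases before each RefSeq start (build GRCm38.p6). It was found in 10 of the 16 lower members with an entry (62.5%) and in 20 of all 39 measured members with an entry (51.3%). Among the 8781 genes of the 12113 with an entry it was in 663 (7.55%), and among all lower genes in 55 of 475 (11.6%). Because the list holds genes known as interferon targets, this share describes the list and says nothing of what bound in these cells. The 120 bases before the start are shown for 4 lower members with large decreases whose sequence there holds a match. They are written 5′ to 3′ on the gene's strand, with matches in capitals. These 4 are a selection, and lower members with larger decreases may not be shown. Overlapping matches run together into a single stretch of capitals.
Isg15, chr4:156200819-156200938, - strand: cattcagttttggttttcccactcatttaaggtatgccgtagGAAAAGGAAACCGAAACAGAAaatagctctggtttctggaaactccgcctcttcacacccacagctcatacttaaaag
Oas3, chr5:120777660-120777779, - strand: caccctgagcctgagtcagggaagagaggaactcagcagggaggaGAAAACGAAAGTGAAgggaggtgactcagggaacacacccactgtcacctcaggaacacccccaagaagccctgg
Oas1a, chr5:120907526-120907645, - strand: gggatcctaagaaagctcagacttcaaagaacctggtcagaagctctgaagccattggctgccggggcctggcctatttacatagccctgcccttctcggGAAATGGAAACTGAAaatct
Igtp, chr11:58199436-58199555, + strand: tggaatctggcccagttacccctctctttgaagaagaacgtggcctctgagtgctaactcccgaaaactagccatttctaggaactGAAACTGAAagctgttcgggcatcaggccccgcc
Isg15, a ubiquitin-like modifier, holds 3 overlapping matches, Oas3 and Oas1a, which make the second messenger of RNase L, hold 2 each, and Igtp, an immunity-related GTPase, holds 1. They were chosen for their decreases, and their values are a description. Isg15 stood at 1051 FPKM in the control and at 74.7, 91.001, 86.5 and 75.8 FPKM under pressure. Oas3 stood at 5.77 FPKM and at 0.340, 0.256, 0.516 and 0.384 FPKM, Oas1a at 132 FPKM and at 37.2, 44.4, 42.4 and 42.4 FPKM. Igtp stood at 54.9 FPKM and at 16.7, 17.5, 18.7 and 18.02 FPKM.

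Mitosis and kinetochore genes had the lowest median, -1.30, among 54 lists that had 5 or more measured members. Of 53 measured members 35 were lower (66.0%, beside 6.2% of all genes) and 0 higher. Birc5 (survivin), a subunit of the chromosomal passenger complex, stood at 25.3 FPKM in the control and at 4.19, 4.76, 6.48 and 4.44 FPKM under pressure. Ccnb2, a mitotic cyclin, stood at 56.3 FPKM and at 9.77, 10.5, 15.1 and 9.98 FPKM, with the highest of the 4 values at -160 mmHg as for Birc5. Bub3, a checkpoint protein also used outside the kinetochore, stood at 15.6 FPKM and at 13.4, 13.9, 16.02 and 13.2 FPKM, with the -160 mmHg library above the control. DNA replication genes, with a median of -0.81, held 17 lower (38.6%) and 0 higher of 44 measured. Tk1, thymidine kinase, stood at 24.7 FPKM and at 3.80, 3.62, 4.59 and 3.70 FPKM, whereas the replication protein Rpa1 was steady at 25.6 FPKM and 23.3, 23.9, 25.4 and 22.4 FPKM. The cyclin-dependent kinase inhibitor Cdkn1b (p27), which holds cells out of the cycle, was higher, at 17.5 FPKM in the control and 39.6, 36.1, 39.3 and 37.05 FPKM under pressure.

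Promoters of cell cycle genes commonly hold the CCAAT box, read by the factor NF-Y, and the cell cycle homology region TTTGAA, read by the DREAM complex. The letters CCAAT were in the 250 bases before the start, on either strand, in 22 of 28 lower mitosis genes with an entry (78.6%) and in 3623 of 8781 tested genes (41.3%). The letters TTTGAA were in 9 of 28 (32.1%) and in 1101 of 8781 (12.5%). Over all measured mitosis genes with an entry, lower or not, CCAAT was in 34 of 44 (77.3%) and TTTGAA in 17 of 44 (38.6%), so the shares belong to the list and not to its lower members. In the lower DNA replication genes CCAAT was in 6 of 14 (42.9%) and TTTGAA in 1 of 14 (7.14%). A match is a description of the letters and not a site shown to be bound. The 120 bases before the start follow for 3 lower members with large decreases that hold both strings there, with matches on either strand in capitals. These 3 are likewise a selection, and lower members with larger decreases may not be shown.
Cdc20, chr4:118437344-118437463, - strand: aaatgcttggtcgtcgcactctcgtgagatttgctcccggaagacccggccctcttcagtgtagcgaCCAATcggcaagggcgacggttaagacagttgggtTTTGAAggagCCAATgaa
Ube2c, chr2:164769809-164769928, + strand: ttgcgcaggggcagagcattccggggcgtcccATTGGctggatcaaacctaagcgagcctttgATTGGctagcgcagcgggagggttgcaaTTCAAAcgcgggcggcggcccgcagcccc
Cdk1, chr10:69352913-69353032, - strand: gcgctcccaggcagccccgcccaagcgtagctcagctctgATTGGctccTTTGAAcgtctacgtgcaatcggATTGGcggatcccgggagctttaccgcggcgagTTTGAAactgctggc
Cdc20 and Ube2c encode an activator and a conjugating enzyme of the anaphase-promoting complex, and Cdk1 the mitotic kinase. Cdc20 stood at 43.7 FPKM in the control and at 12.1, 10.6, 16.2 and 11.1 FPKM under pressure. Ube2c stood at 40.8 FPKM and at 9.96, 10.9, 15.2 and 11.9 FPKM. Cdk1 stood at 42.3 FPKM and at 11.6, 13.3, 16.04 and 12.6 FPKM.

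Inflammatory genes did not share a direction. Chemokine ligands held 5 lower (41.7%, beside 6.2% of all genes) and 0 higher of 12 measured, with a median of -0.85. MHC class I and antigen processing genes held 6 lower (28.6%) and 0 higher of 21, with a median of -0.23. Cx3cl1, the membrane-bound chemokine fractalkine, stood at 31.2 FPKM in the control and at 2.49, 2.56, 2.32 and 2.06 FPKM under pressure. Tapbp (tapasin), which loads peptides on class I molecules, stood at 173 FPKM and at 74.1, 83.5, 72.9 and 71.9 FPKM, while the class I gene H2-D1 stood at 264 FPKM and at 345, 418, 356 and 359 FPKM. Class I genes are close paralogs and may share reads. Complement factors went the other way, with 6 higher (33.3%, beside 9.25% of all genes) and 0 lower of 18 measured and a median of 0.57. The filter kept 18 of the 31 listed and asks more of a gene read only in the control, so 0 lower is a count under that filter. Clu (clusterin), which blocks the terminal complex, stood at 6.85 FPKM in the control and at 50.2, 57.7, 62.6 and 66.5 FPKM under pressure. Cfb, the factor B of the alternative pathway, stood at 0.231 FPKM and at 1.91, 2.56, 2.48 and 2.69 FPKM. It passed the filter through the pressure libraries alone.

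Among genes of protein synthesis and respiration most members did not pass the rule, and the share that was lower differed between lists. Cytosolic ribosomal protein genes held 21 lower (26.2%, beside 6.2% of all genes) and 1 higher of 80 measured, with a median of -0.85, which quantile normalization brought to -0.35. Mitochondrial ribosomal protein genes held 7 lower of 77 (9.09%), a share near that of all genes, with a median of -0.41. Nuclear genes of the respiratory chain held 17 lower of 76 (22.4%) with a median of -0.67. The mitochondrially encoded messengers, subunits of the same chain, had a median of -0.03 with 0 of 13 past the size rule. Aminoacyl-tRNA synthetases, the enzymes that charge tRNAs, held 0 called members of 39, with a median of -0.07. Among them Mars stood at 29.98 FPKM in the control and at 61.2, 63.9, 59.1 and 56.8 FPKM under pressure, and Wars2 at 3.54 FPKM and at 2.14, 1.89, 1.98 and 2.01 FPKM, the members at either end of the list. The higher ribosomal member was Rps4l, a paralog of Rps4x, with 14.2 FPKM and 47.4, 55.2, 55.1 and 49.7 FPKM. Ribosomal genes have many pseudogenes that can share reads.

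In the spliceosome list of 106 measured genes, 7 were lower (6.6%) and 3 higher (2.83%), beside 6.2% and 9.25% of all genes, and the median was -0.06. The share of lower genes was thus near that of all genes, and the lower members are named as a description only. The 7 lower members encode small core proteins of the spliceosomal particles: Snrpd2, Snrpe, Snrpd1, Snrpf, Snrpg, Lsm4 and Lsm3. Snrpd2 stood at 66.9 FPKM in the control and at 20.04, 21.4, 20.6 and 21.9 FPKM under pressure. Snrpe stood at 67.5 FPKM and at 23.2, 20.9, 22.7 and 24.4 FPKM. Among the higher members Srrm2, a large scaffold of nuclear speckles, stood at 37.7 FPKM and at 88.8, 76.2, 73.6 and 79.4 FPKM. Rbm26 and Hnrnph2, which bind RNA, were the others.

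Chromatin and zinc finger genes lay above the median of all genes with few members past the rule. Histone lysine methylases and demethylases had a median of 0.45. Of 40 measured 2 were higher (5%, beside 9.25% of all genes) and 0 lower (beside 6.2%). Kmt2a, the H3K4 methylase of Hox genes, stood at 2.58 FPKM in the control and at 7.64, 6.69, 6.38 and 6.70 FPKM under pressure, and Kdm7a, a demethylase, at 1.18 FPKM and at 3.93, 3.41, 3.95 and 4.01 FPKM. Ezh2, the methylase of the Polycomb complex, stood at 6.58 FPKM and at 4.98, 4.36, 5.71 and 5.08 FPKM, below the rule in the other direction. With the trend on exon length removed the median of this list was 0.29. The 276 measured Zfp genes, mostly zinc finger repressors, had a median of 0.33, with 9 higher (3.26%) and 4 lower (1.45%), fewer of either than over all genes. Zfp36, which destabilizes messengers with AU-rich tails, stood at 18.1 FPKM and at 72.2, 80.8, 87.1 and 77.9 FPKM, and Zfp970 at 0.350 FPKM and at 9.33, 7.27, 9.55 and 8.64 FPKM. At the low end Zfp991 stood at 5.59 FPKM and at 0.0824, 0.103, 0.0806 and 0.0949 FPKM. Many Zfp genes have close copies, and their reads can be split between them.

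Axon guidance genes, whose ligands and receptors also steer vascular and stromal cells, had a median of 0.53. Of 38 measured 12 were higher (31.6%, beside 9.25% of all genes) and 1 lower (2.63%, beside 6.2%). Among the ligands, 4 ephrins and 4 semaphorins were higher, as was the netrin Ntn3. Efnb2, ephrin-B2, stood at 1.94 FPKM in the control and at 10.96, 9.59, 11.5 and 9.08 FPKM under pressure. Efna5 stood at 2.05 FPKM and at 6.66, 6.62, 6.46 and 5.49 FPKM, and Sema3b at 9.06 FPKM and at 23.2, 26.7, 22.8 and 21.4 FPKM. Among the receptors, Epha1 stood at 1.84 FPKM and at 6.67, 7.90, 6.75 and 7.87 FPKM. Neo1 (neogenin), a receptor for netrins and repulsive guidance molecules, stood at 9.25 FPKM and at 23.4, 21.1, 21.2 and 20.1 FPKM. The lower member was Slit3, a secreted ligand of Robo receptors, at 52.2 FPKM and 4.44, 4.99, 3.98 and 3.71 FPKM, while its relative Slit2 stood at 7.17 FPKM and 7.54, 6.37, 6.39 and 6.06 FPKM. Without a filter on low values the list median was 0.08, the filter having kept 38 of its 74 genes.

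Vascular growth factors and their receptors had a median of 0.81. Of 21 measured 8 were higher (38.1%, beside 9.25% of all genes) and 2 lower (9.52%, beside 6.2%). Pdgfc stood at 1.79 FPKM in the control and at 5.81, 5.28, 5.22 and 5.32 FPKM under pressure, and Hgf, hepatocyte growth factor, at 4.98 FPKM and between 9.62 and 13.6 FPKM. Bone morphogenetic protein and TGF-beta family genes had a median of 0.65, with 15 higher (37.5%) and 2 lower (5%) of 40. Of the antagonists, Chrdl1 stood at 0.0483 FPKM and at 2.96, 3.07, 3.01 and 3.29 FPKM, whereas the activin antagonist Fst stood at 3.30 FPKM and at 0.367, 0.630, 0.679 and 0.338 FPKM. The target genes Id1 and Id3 did not pass the rule, at 37.2 FPKM and 28.3, 28.4, 33.04 and 28.1 FPKM for Id1 and at 90.1 FPKM and 79.5, 100.2, 87.2 and 88.1 FPKM for Id3.

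Enzymes of heparan and chondroitin sulfate synthesis build the sugar chains that hold growth factors at the cell surface. Their median was 0.20, near that of all genes, but 7 of 30 measured were higher (23.3%, beside 9.25% of all genes) and 0 lower. Those past the rule lay along the pathway. Extl3, which starts the heparan chain, stood at 9.78 FPKM in the control and at 27.3, 26.5, 22.3 and 20.6 FPKM under pressure. Hs6st2 and Hs6st1, which add sulfate at the 6-O position, stood at 3.77 FPKM and 27.4, 25.2, 25.7 and 27.4 FPKM, and at 3.31 FPKM and 11.7, 10.2, 9.59 and 8.09 FPKM. Sulf2, which removes that sulfate outside the cell, stood at 4.59 FPKM and at 11.3, 11.2, 10.8 and 9.65 FPKM, while its relative Sulf1 was steady at 5.29 FPKM and 6.16, 5.45, 5.99 and 6.08 FPKM. Csgalnact1 and Chst11, of chondroitin sulfate, and Glce, the heparan epimerase, were the other higher members, with differences of 1.07, 1.12 and 1.04.

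Within lipid synthesis, the genes past the rule were mainly those that desaturate and elongate fatty acids. The list held 7 higher (20.6%, beside 9.25% of all genes) and 0 lower of 34 measured, with a median of 0.37. Scd1, a stearoyl-CoA desaturase, stood at 26.8 FPKM in the control and at 109, 91.8, 92.1 and 90.96 FPKM under pressure, and its paralog Scd2 at 79.5 FPKM and at 239, 218, 220.2 and 205 FPKM. Fads2 and Fads1, the desaturases of polyunsaturated fatty acids, stood at 27.98 FPKM and 79.1, 82.4, 75.01 and 75.2 FPKM, and at 40.2 FPKM and 98.4, 96.5, 87.7 and 87.9 FPKM. The elongase Elovl5 stood at 16.7 FPKM and at 38.2, 34.9, 40.4 and 40.7 FPKM. Not all of the list moved with them: Sqle, squalene epoxidase of the sterol branch, was steady at 19.1 FPKM and 19.8, 19.1, 19.1 and 19.4 FPKM, as was the sterol regulator Srebf2 at 34.3 FPKM and 36.5, 36.2, 33.8 and 31.8 FPKM.

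Circadian clock genes held 8 higher (36.4%, beside 9.25% of all genes) and 0 lower of 22 measured, with a median of 0.59. The clock is a loop in which Clock or Npas2 with Arntl (BMAL1) activates the Per and Cry repressors and the Nr1d receptors. Of the activators, Npas2 stood at 0.136 FPKM in the control and at 3.06, 2.54, 2.01 and 2.13 FPKM under pressure. Npas2 passed the filter through the pressure libraries alone. Clock stood at 1.61 FPKM and at 4.54, 3.74, 4.04 and 3.94 FPKM, and Arntl at 2.82 FPKM and at 4.25, 3.13, 3.00 and 3.08 FPKM. Of the repressors, Cry1 stood at 2.77 FPKM and at 6.96, 6.64, 7.59 and 5.64 FPKM, whereas Per1 was steady at 6.99 FPKM and 7.28, 7.03, 6.83 and 7.33 FPKM. Per2 was steady as well, at 1.67 FPKM and 1.81, 1.68, 1.73 and 1.62 FPKM. Nr1d2 (REV-ERB beta) stood at 5.22 FPKM and at 16.5, 14.5, 18.6 and 18.03 FPKM, and Bhlhe40, a repressor that also answers to hypoxia, at 15.7 FPKM and at 51.7, 52.4, 58.8 and 57.1 FPKM. No source used here gives the hour of each harvest.

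A pair of stress response lists lay above the median of all genes with 0 lower members each. Targets of ATF4 and amino acid supply genes had a median of 0.56, with 6 higher of 29 measured (20.7%, beside 9.25% of all genes). Endoplasmic reticulum chaperones had a median of 0.51, with 6 of 32 higher (18.8%). The amino acid carriers Slc7a3 and Slc7a11 stood at 2.74 FPKM and 14.1, 13.2, 13.5 and 13.8 FPKM, and at 0.847 FPKM and 3.15, 3.10, 3.76 and 3.42 FPKM. Hyou1, a chaperone of the endoplasmic reticulum, stood at 11.6 FPKM and at 32.1, 32.4, 30.04 and 27.9 FPKM, while Ddit3 (CHOP), a factor of the terminal response, stood at 79.1 FPKM and at 79.1, 93.5, 90.4 and 97.8 FPKM. Of 39 measured antioxidant genes 3 were higher (7.69%, beside 9.25% of all genes) and 6 lower (15.4%, beside 6.2%): Gstt1, a glutathione transferase, stood at 18.03 FPKM and at 60.5, 68.8, 62.4 and 71.9 FPKM, and Gsta4, another, at 62.5 FPKM and at 6.88, 5.95, 5.20 and 5.60 FPKM.

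**Figure D3:**
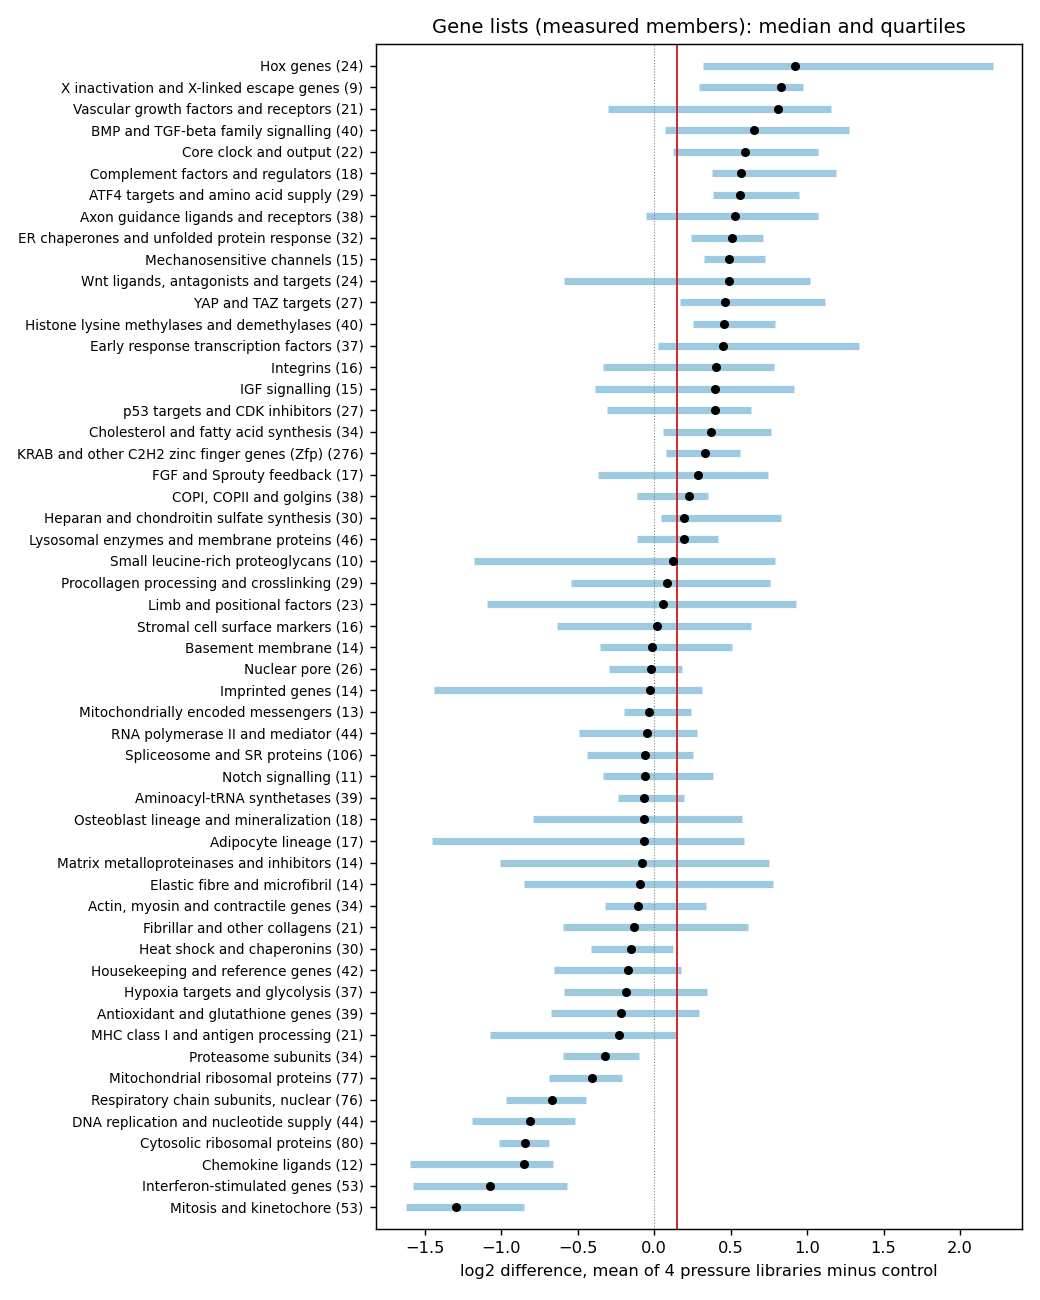
Median (point) and quartiles (bar) of the log2 difference over the measured members of 54 gene lists, their number in brackets, with the median of all 12113 genes as a red line. Of these lists 9 have a median of at least 0.5 and 6 of at most -0.5, with Hox genes at the top and mitosis genes at the bottom.

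Genes that stayed level in all 5 libraries were those whose highest and lowest log2(FPKM + 1) differed by at most 0.2. This is a 1.15-fold range of FPKM + 1, and the range of FPKM itself can be wider for genes with low values. They numbered 930 of 12113 (7.68%), and 916 of them were coding. The highest of them include genes of the matrix, the cytoskeleton and the lysosome. Sparc (osteonectin), a collagen-binding matrix protein, stood at 728 FPKM in the control and at 708, 755, 662 and 657 FPKM under pressure. Serpinh1 (HSP47), the collagen chaperone, stood at 549.9 FPKM and at 556, 596, 563 and 589.8 FPKM. Timp2, an inhibitor of matrix metalloproteinases, stood at 509 FPKM and at 499, 528, 490.04 and 476 FPKM, in the same libraries in which Mmp2, the protease it binds, stood at 398 FPKM and at 3.33, 3.09, 3.19 and 2.43 FPKM. Acta2, smooth muscle actin, stood at 351 FPKM and at 398, 359, 359 and 391 FPKM. Lamp1, Actg1, Eif1, Tmbim6, Fbln1, Dstn, Cnbp and Lgmn complete the 12 with the highest means, from 149 FPKM in the control for Lgmn to 549 FPKM for Actg1.

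The share of steady genes differed with expression, without rising to the most abundant genes. Their median level was 10.5 FPKM beside 7.42 FPKM for all genes, and they made up 4.04% of the 2423 genes with the lowest mean FPKM and 10.1% of the 2423 with the highest. Of the 451 genes at 100 FPKM or more 34 were steady (7.54%), no more than the 7.68% of all genes. By list, 7 of 26 measured nuclear pore genes (26.9%) and 10 of 46 lysosomal genes (21.7%) were steady, as were 6 of 38 genes of COPI, COPII and golgins (15.8%), the coats and tethers of secretory transport. Nup93, a scaffold nucleoporin, stood at 14.6 FPKM in the control and at 14.6, 14.02, 14.95 and 14.8 FPKM under pressure. Gorasp2, a Golgi stacking protein, stood at 44.2 FPKM and at 44.98, 45.9, 45.6 and 45.8 FPKM. The nuclear pore and coat lists held 0 called genes in either direction, with medians of -0.02 and 0.23. No mitosis gene of 53 and no respiratory gene of 76 was steady. Which genes count as steady rests on the scaling: with the trimmed mean of log ratios the count of steady genes was 973, with 421 of them among the 930, and 5 of the 12 genes named above stayed steady.

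Genes used as reference in quantitative PCR are given for their own sake. Of 42 housekeeping genes 6 were steady (14.3%, beside 7.68% of all genes), 3 were lower (7.14%, near the 6.2% of all genes) and 0 higher, and the median was -0.17. Gapdh, the glycolytic enzyme, stood at 764 FPKM in the control and at 387, 432, 493 and 460.1 FPKM under pressure. Actb stood at 1112 FPKM and at 817, 868, 897 and 933 FPKM, and Hprt at 48.4 FPKM and at 60.99, 64.2, 71.96 and 67.7 FPKM. Ppia (cyclophilin A) stood at 498 FPKM and at 179, 187, 209 and 212 FPKM, and Tuba1b and Psmb2 were the other lower members. The steady ones were Gpi1, Mlf2, Hnrnpl, Rpl13a, Ywhaz and Rab7. Ywhaz, a 14-3-3 protein, stood at 90.3 FPKM and at 88.97, 94.7, 97.5 and 93.7 FPKM. Tbp, the TATA-binding protein, and Top1, topoisomerase, stood higher in all 4 pressure libraries without passing the rule, with differences of 0.61 and 0.77. Tbp and Gapdh, 2 reference genes in common use, thus differed in opposite directions. With the trimmed mean of log ratios the median of the list was -0.32 and with quantile normalization 0.05, so the sign of that median depends on the scaling.

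**Figure D4:**
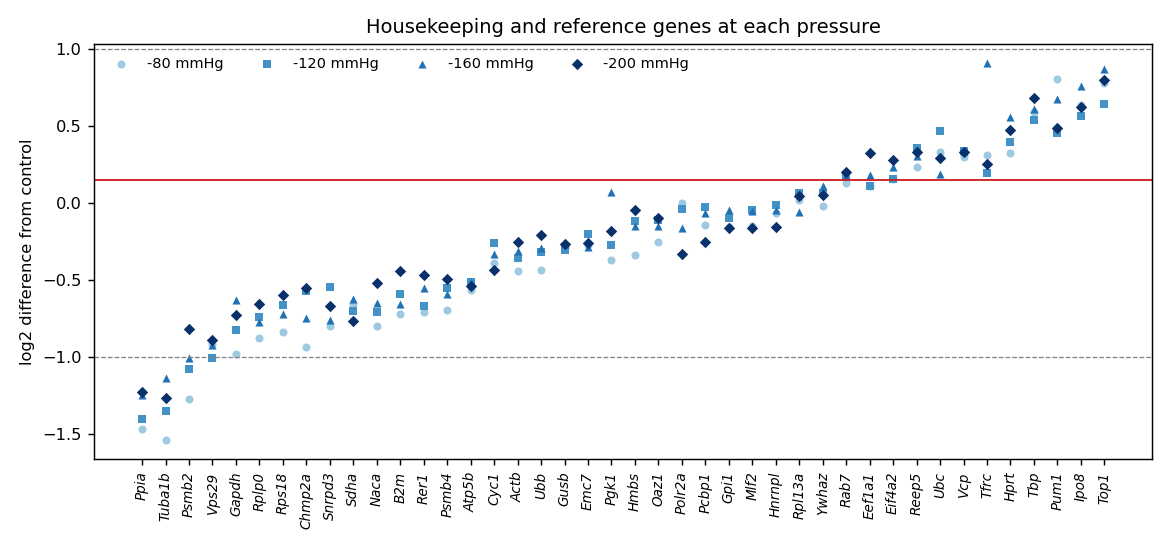
Log2 difference from the control of 42 housekeeping and reference genes, 1 symbol for each pressure library, ordered by the mean difference, with the size rule as dashed lines and the median of all genes as a red line. Ppia, Tuba1b and Psmb2 lie lowest, and Ywhaz and its neighbours lie near 0 at each pressure.

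The identity of the cells was checked with marker lists. Stromal surface markers summed to 2596 FPKM in the control, against 1525 to 1762 FPKM under pressure. Ly6a, given below, made up most of that control sum, and the median difference of the measured members was 0.02. Of 23 listed 16 were measured, with 1 higher (6.25%, beside 9.25% of all genes) and 2 lower (12.5%, beside 6.2%). Pdgfra and Itgb1, stromal surface proteins, were read in all 5 libraries, at 44.3 FPKM and 71.5, 63.7, 70.5 and 68.7 FPKM for Pdgfra, whereas Thy1 was close to unread in the control. The surface protein gene Ly6a (Sca-1) went the other way and was lower, at 1740.5 FPKM in the control and 622, 827, 737 and 828 FPKM under pressure. Of 15 lymphoid markers 0 passed the filter, and 9 were at 0 in all 5 libraries. Of 24 macrophage markers 4 passed, with 3 higher (75%, beside 9.25% of all genes) and 1 lower (25%, beside 6.2%). Their median difference was 1.17, although the list summed to 367 FPKM in the control against 165 to 180 FPKM under pressure. That sum is mostly Lgals3, at 336 FPKM and 93.7, 103, 101 and 102 FPKM, which stromal cells also make, and the defining receptor genes Csf1r and Adgre1 stood at 0.0941 and 0 FPKM in the control, and under pressure at 0.366 to 0.427 and 0 to 0.0182 FPKM. Of 16 granulocyte markers 3 were measured, summing to 378 FPKM and 235 to 284 FPKM, nearly all of it Lcn2, which did not pass the rule, while the other measured ones, Prtn3 and Camp, were higher. Osteoclast markers summed to 94.7 FPKM and 9.69 to 10.4 FPKM, of which Ctsk alone made 78.1 FPKM in the control. Of the 4 measured, Ctsk and Mmp9 were lower (50%, beside 6.2% of all genes), and Nfatc1 and Itgb3 had differences of 0.62 and 0.21. Endothelial markers summed to 4.34 FPKM and 7.51 to 8.65 FPKM. The part of other cell types in the differences was not tested.

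Genes of body position differed between the control and the pressure libraries. Of 24 measured Hox genes 11 were higher (45.8%, beside 9.25% of all genes) and 1 lower (4.17%, beside 6.2%), with a median of 0.92. Hoxc8 stood at 3.82 FPKM in the control and at 24.9, 26.4, 26.6 and 25.5 FPKM under pressure, while Hoxa10 stood at 22.4 FPKM and at 24.7, 26.1, 26.6 and 28.4 FPKM. Of 23 other limb and positional factors 5 were higher (21.7%) and 6 lower (26.1%). En1, engrailed, stood at 23.7 FPKM and at 0.458, 0.367, 0.246 and 0.338 FPKM, and Emx2, a homeobox gene of the shoulder girdle and forebrain, at 5.52 FPKM and at 26.9, 26.6, 26.7 and 26.03 FPKM. Tbx15, a T-box gene of limb and skin, was steady at 34.2 FPKM and 34.5, 35.1, 37.9 and 35.3 FPKM. These genes are set early in development by position along the body, and no source used here says whether the control cells came from another bone or animal.

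A pair of miRNA genes lie inside Hox clusters. Mir196a-1 was higher, as were Hox genes beside it, whereas Mir196a-2 passed the size rule on only 3 to 5 reads in each pressure library. Mir196a-1 lies in the Hoxb cluster and Mir196a-2 in the Hoxc cluster, and both yield the same mature miR-196a-5p, shown with its seed (bases 2 to 8) in capitals. Mir221 and Mir222 lie next to each other on chromosome X, and their mature arms share a seed. The sequences are from RefSeq (GRCm38.p6).
miR-196a-5p, chr11:96265187-96265208, + strand, and chr15:102973365-102973386, + strand: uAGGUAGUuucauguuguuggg
miR-221-3p, chrX:19146307-19146329, - strand: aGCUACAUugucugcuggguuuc
miR-222-3p, chrX:19146901-19146923, - strand: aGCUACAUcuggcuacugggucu
Mir196a-1 had 5 reads in the control and 123, 133, 101 and 127 reads under pressure, and Mir196a-2 had 0 reads and then 5, 4, 3 and 3 reads. Mir221 had 0 reads and then 3, 3, 10 and 8 reads, and Mir222 had 0 reads and then 4, 1, 3 and 4 reads. These are reads over the hairpin genes in libraries of long RNA, where they may belong to the primary transcript or to another transcript across the locus. They are not a measure of the mature miRNA, and for Mir196a-2, Mir221 and Mir222 they are too few to give more than the presence of reads.

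The difference was not the same on every chromosome. Over the 20 chromosomes other than Y, the median difference ran from 0.44 on chromosome 14, 0.38 on chromosome 19 and 0.34 on chromosomes X and 9 to -0.07 on chromosomes 1 and 13 and -0.30 on chromosome 16. On chromosome 16 29.8% of genes had a difference above 0, and 3.41% were higher and 12.8% lower. On chromosome 14 75.4% were above 0, and 18.6% were higher and 3.86% lower. Between the pressures, by contrast, the chromosome medians ran only from -0.04 to 0.04. In windows of 20 Mb with at least 20 tested genes, all 5 windows of chromosomes 14 and 17, all 3 of chromosome 19, all 7 of chromosomes 8 and 9 and all 9 of X lay above the median of all genes, and 0 of 4 on chromosome 16. Other chromosomes changed along their length: on chromosome 4 windows ran from -0.16 to 0.53 and on chromosome 1 from -0.27 to 0.39. The highest such window, from 100 to 120 Mb on chromosome 14, had a median of 0.998, with 14 of 29 genes higher and 1 lower. Copy number was not measured here, and no cause of these shifts was tested. With the median of each gene's chromosome removed, an alternative chosen after the data were seen, 1048 genes were higher and 719 lower.

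**Figure D5:**
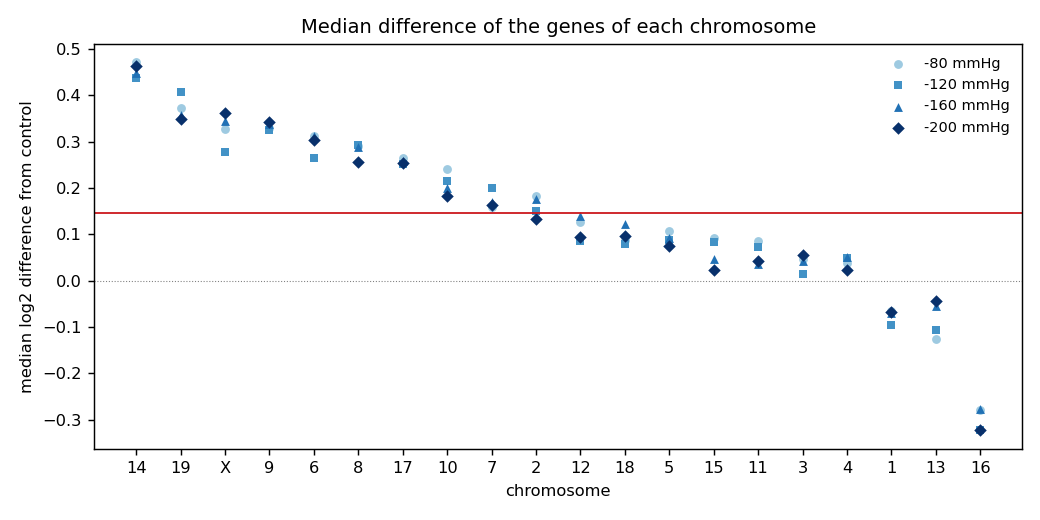
Median log2 difference from the control over the tested genes of each chromosome, 1 symbol for each pressure library, with the median of all genes as a red line. The 4 libraries lie close together on each chromosome, highest on 14 and lowest on 16.

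Genes past the rule lay beside one another more often than genes in general. Of 902 higher coding genes 34.8% had a higher gene as a direct neighbour in the order of tested coding genes, beside 15.7% of all 10711 coding genes. Of 629 lower coding genes 23.1% had a lower neighbour, beside 11.1% of all. There were 29 runs of at least 3 neighbouring higher genes and 15 of lower genes. The longest was the Hoxb run of 7 genes from Hoxb9 to Hoxb3 on chromosome 11. On chromosome 14 a run joined the nuclear receptors Rarb, Thrb and Nr1d2. A run on chromosome 4 joined Col27a1, a fibrillar collagen, with the orosomucoids Orm1, Orm3 and Orm2, which are near-identical copies. On chromosome 19 the desaturases Fads3, Fads2 and Fads1 were a run, and on chromosome 10 the glutathione transferases Gstt3, Gstt1 and Gstt4. Families among the runs of lower genes were S100a13, S100a16, S100a4 and S100a6, calcium-binding proteins on chromosome 3, and the guanylate-binding proteins Gbp3, Gbp2b and Gbp2. On chromosome 17 Psmb9, Tap1 and Psmb8 of antigen processing lay side by side, and on chromosome 16 Parp14, Dtx3l and Parp9. S100a6 stood at 1887 FPKM in the control and at 363, 421, 419 and 445 FPKM under pressure, and S100a4 at 117 FPKM and at 13.8, 10.9, 11.7 and 11.3 FPKM.

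Gene length and type went with the difference. In 10 groups of near-equal size by exon length, the median difference ran from -0.11 and -0.18 in the 2 shortest groups to 0.41 in the longest, and the share of lower genes from 12.9% and 13.2% to 1.65%. Processed pseudogenes, copies of spliced messengers, had a median of -0.44 with 70 of 456 lower (15.4%). Among short RNA genes, 36 of 96 small nucleolar (37.5%), 31 of 84 miRNA (36.9%) and 18 of 33 small nuclear RNA genes (54.5%) were higher. In the control 29, 22 and 15 of them were silent. Genes silent there with exons of under 200 nt had a median of 13 reads pooled over the pressures. The filter admits such genes through the pressure libraries, so these shares are no result about the gene types. Of 45 higher genes whose range over the pressures exceeded their difference, 42 had exons of under 200 nt, as did 14 of 18 lower genes. With the trend on exon length removed 1093 genes were higher and 621 lower. RNA quality and fragment size were not analysed here.

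Among the 49 genes that reached 1000 FPKM in any library 2 were higher and 15 lower, beside 9.25% and 6.2% of all genes. The higher ones were Thbs2, the matrix protein thrombospondin 2, and Aebp1, a collagen-binding carboxypeptidase-like protein at 615 FPKM in the control and 1284, 1388, 1190.2 and 1134 FPKM under pressure. Lgals1, galectin 1, stood at 4271 FPKM and at 978, 1084, 1131 and 1184 FPKM, the largest fall in FPKM of all genes. Vim, the intermediate filament protein vimentin, did not reach 1000 FPKM but was also lower, at 940.02 FPKM and 210.3, 222, 229 and 235 FPKM. Bst2 (tetherin), which holds budding virus at the cell surface, stood at 1986 FPKM and at 569, 773, 631 and 631 FPKM. Fth1, the ferritin heavy chain, had the largest gain in FPKM, from 1391 FPKM to 2529, 2763, 2618 and 2921 FPKM, and stayed just under the size rule with a difference of 0.96.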

How the data were processed

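Expression came as FPKM in a single table deposited by the authors. The submitters' processing notes, per the labels, name HISAT2, SAMtools, featureCounts 1.5.0-p3 and the rat build rn6. The gene IDs are mouse Ensembl IDs, so that build was not used here, and names, exon lengths, biotypes and positions came from GENCODE release M21, which matched 55141 of 55401 IDs. No source used here states the strand setting, so overlapping, antisense and near-identical genes may share reads. Whole reads were recovered from the deposited FPKM and exon length for 98.8% of genes (tolerance 0.001 reads) and used for read numbers, exact Clopper-Pearson intervals and floors only. Such reads carry no molecular identifiers, so intervals cover counting error only. The table held 0 columns of other samples.

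Differences were computed on log2(FPKM + 1) for genes averaging 1 FPKM or more and called by size, with no test, since each condition had 1 library. The members and the gene lists were chosen with earlier results of these data known. Named genes were the 15 largest increases with at least 5 FPKM in every pressure library, the 15 largest decreases with at least 5 FPKM in the control, up to 6 called members of a list and those its description turns on, the 12 highest genes silent on each side, the 12 highest steady genes, and any housekeeping, sex-linked or position gene. Names outside this rule were picked with their values in view: Mccc1, the further coding genes silent on either side, the genes of the runs, the abundant genes, the small RNA genes and the marker genes. Some genes that the rule covers are not reported here. Promoters and mature miRNAs came from RefSeq tables (GRCm38.p6). The functions were tested on simulated data. Versions were matplotlib 3.10.9, scipy 1.17.1, pandas 2.3.3, numpy 2.4.6 and Python 3.11.15. Alternatives changed the pseudocount, filter, scaling, size rule, gene type, length and chromosome trends and the libraries used.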

Additional observations from a re-analysis of the deposited data

How the results depend on the processing

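The number of higher and lower genes depended on the pseudocount, the filter and the size asked for. With a pseudocount of 0.1 there were 1863 higher genes, and with 5 there were 281 higher and 415 lower. At a mean of at least 5 FPKM 631 were higher and 467 lower. At 1.5-fold there were 2863 genes higher under pressure and 1717 genes lower under pressure, and at 4-fold 135 and 165. Lists with a median past 0.5 in either direction numbered 15, and 9 with a pseudocount of 5 or with no filter. Genes silent in the control numbered 435 below 0.5 FPKM, 64 with at least 1 FPKM in every library of the other side, 4 at a mean of 5 FPKM and 50 with exons of at least 200 nt. Genes silent under pressure numbered 5 at 0 FPKM, 40 below 0.5 FPKM, 91 by the rule on the other side and 1 at 5 FPKM. Steady genes numbered 96 within 0.1 and 2359 within 0.3. Leaving out each pressure library in turn gave 1081 to 1157 higher, 739 to 760 lower, 15 to 17 lists, 108 to 123 and 18 to 19 silent, and 1211 to 1332 steady genes. Over 17 settings and 54 lists, 639 list medians moved by no more than the standard deviation of that list's medians at the 4 pressures, and 279 by more. That limit is over different conditions with the same control and is not a replicate error. No paired analysis was possible because each group has 1 library. The control could not be left out, since it is the only one.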
